A study of Mus musculus with 12 samples.

Results

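The signalling lymphocytic activation molecule (SLAM) receptors are immunoglobulin-type surface proteins of blood cells, and their genes lie side by side on mouse chromosome 1. The 7 members described here were Slamf1, Cd48, Cd84, Ly9, Cd244, Slamf6 and Slamf7. They were taken by their gene symbols as a known family, and Slamf1 was set against the others because it had its highest level in wtKI, so its levels there chose it and are given as a description with no test. All 7 had a value, of 14201 genes in all, and they were covered by 43 of the 105661 probe sets in the table.

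Granulocyte-monocyte precursors (GMPs), the bone marrow progenitors of granulocytes and monocytes, were sorted by surface markers, and their RNA was hybridised to 12 Affymetrix arrays (Mouse Gene 1.0 ST), 3 in each of 4 groups. The groups were wild-type mice (WT), Gfi1 knock-out mice (KO), mice with a knock-in of human Gfi1-wt (wtKI) and mice with a knock-in of the human Gfi1-SNP form (SNP). The strain label of every group was C57BL/6, and the labels state no treatment. The labels give neither ages nor how the alleles were built, and they do not state that arrays of a group came from separate mice. The p-values therefore reflect only how far these arrays differed, and that spread may be technical.

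Most SLAM receptors bind their own kind on a neighbouring cell, so that Slamf1, Cd84, Ly9, Slamf6 and Slamf7 each act as ligand and receptor. Cd48 is held in the membrane by a lipid anchor, has no signalling tail, and is the ligand of Cd244. The tails of the signalling members recruit small SH2 adaptors, SAP (Sh2d1a) and EAT-2 (Sh2d1b1), and through SAP the kinase Fyn. In mouse bone marrow, Slamf1 (CD150) marks blood stem cells and early progenitors, while Cd48 and Cd244 mark cells further along, which is why the family is used to sort stem cells. GFI1, the protein altered in the mice, is a zinc-finger repressor whose zinc fingers bind DNA at an AATC core.

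The promoter of Slamf1 is shown with those of Slamf7, the other member with the longer motif AATCAC, and of Cd48, the next gene to Slamf1, in which that motif was not found. Each sequence runs 5′ to 3′ along the gene's own strand over 300 bases around its RefSeq start site, in the GRCm38.p6 build. Capitals mark AATCAC read on either strand (GTGATT where it lies on the opposite strand) and, in Slamf1, the 8-base TAAATCAC on the opposite strand.
Slamf1 promoter, chr1:171766882-171767181 (+ strand): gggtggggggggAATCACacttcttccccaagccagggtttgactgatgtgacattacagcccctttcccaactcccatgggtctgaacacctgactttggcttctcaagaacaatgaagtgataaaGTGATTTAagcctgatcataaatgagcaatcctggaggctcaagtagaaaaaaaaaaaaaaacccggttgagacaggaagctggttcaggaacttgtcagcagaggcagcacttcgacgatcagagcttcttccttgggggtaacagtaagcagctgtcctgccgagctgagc
Slamf7 promoter, chr1:171648950-171649249 (- strand): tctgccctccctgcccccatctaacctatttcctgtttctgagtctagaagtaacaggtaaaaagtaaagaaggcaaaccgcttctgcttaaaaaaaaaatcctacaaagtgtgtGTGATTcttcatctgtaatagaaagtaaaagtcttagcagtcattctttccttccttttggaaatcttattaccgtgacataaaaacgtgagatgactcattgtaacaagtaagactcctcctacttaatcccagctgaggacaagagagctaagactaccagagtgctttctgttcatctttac
Cd48 promoter, chr1:171681742-171682041 (+ strand): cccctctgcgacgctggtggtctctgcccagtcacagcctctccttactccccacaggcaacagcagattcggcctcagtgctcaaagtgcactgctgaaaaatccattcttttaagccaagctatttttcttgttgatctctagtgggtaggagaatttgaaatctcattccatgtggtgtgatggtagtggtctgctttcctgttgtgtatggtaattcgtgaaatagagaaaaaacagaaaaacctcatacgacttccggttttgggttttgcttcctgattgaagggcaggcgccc

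The letters AATC, searched on both strands, were in 73.1% of the 32851 RefSeq promoter windows of this length, AATCAC in 10.4% and TAAATCAC in 0.578%. Each shorter motif lies within the longer ones, and AATCAC and TAAATCAC were chosen after the Slamf1 promoter had been read. Slamf1 held AATC at 3 places, AATCAC at 2 of them and TAAATCAC at 1. Slamf7 and Cd48 held AATC at 4 places each, Slamf6 at 3, and Cd244 and Cd84 at 1 each. The sequence table matched 6 of the 7 members, and Ly9 was not among them. A match of letters is a description and not a bound site.

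KO 1 and SNP 1 stood apart from the other arrays. Their median correlations with the rest over all probe sets were 0.701 and 0.633, against 0.836 to 0.886 for the other 10, and values without both are therefore given beside those from all 12. SNP 1 had the highest mean of the 12 arrays for markers of late neutrophils (10.9), B cells (8.70), macrophages and dendritic cells (8.30) T and NK cells (8.10) and megakaryocytes and erythroid cells (8.26), and the lowest for GMP markers (8.23, against 8.78 to 9.21). The megakaryocyte and erythroid mean was 7.49 on KO 1 and 6.28 to 6.92 on the other 10 arrays. Each of the 11 measured GMP markers, with Mpo, Ctsg, Cd34 and Kit among them, was above the 5th percentile of probe sets on every array. Y-linked genes were low on WT 3, wtKI 2 and wtKI 3 (means of 2.96 to 3.17) and high on the other arrays (7.51 to 8.20). Gfi1 itself was at 5.75, 5.71 and 6.26 (log2) on the WT arrays, 6.33, 6.78 and 6.57 on KO, 6.09, 6.38 and 6.13 on wtKI, and 5.94, 6.35 and 6.42 on SNP. It was not lower in KO, so these probe sets did not check the KO label, and whether they lie in the deleted part is not known here.

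Slamf1, the stem cell marker CD150 and its own ligand, was at 6.77, 8.22 and 6.70 (log2 signal) on the wtKI arrays. It was at 4.47, 4.40 and 4.35 on the WT arrays, 4.83, 5.79 and 5.34 on KO, and 5.65, 4.34 and 4.77 on SNP. Every wtKI array was above every array of the other 3 groups, and wtKI 2 was the highest of all. In order, the group means were 7.23 ± 0.86 in wtKI, 5.32 ± 0.48 in KO, 4.92 ± 0.67 in SNP and 4.41 ± 0.06 in WT (SD, n = 3 each). KO and SNP overlapped, as did SNP and WT, while the KO arrays were all above the WT arrays. On 6 of the 12 arrays, all 3 of WT among them, Slamf1 was under the array's 5th percentile of probe sets (4.39 to 5.65), so these levels are near background and the sizes of differences from them are not exact.

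The wtKI mean was 2.82 ± 0.43 above WT (log2, SE), a 7.08-fold difference in signal, and KO and SNP were at -1.91 ± 0.43 and -2.31 ± 0.43 from wtKI. Without KO 1 and SNP 1 these were 2.82 ± 0.36, -1.67 ± 0.40 and -2.68 ± 0.40. With the level of the Y-linked genes as a covariate they were 2.70 ± 0.46, -1.69 ± 0.52 and -2.07 ± 0.53. On wtKI 1, the wtKI array with high Y-linked genes, Slamf1 was at 6.77, and on WT 3, the WT array with low ones, it was at 4.35. The 3 comparisons share the wtKI arrays that chose the gene and are no separate support for each other.

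Both probe sets of Slamf1 were higher on every wtKI array than on every WT array. Probe set 10351670 was at 6.50, 8.21 and 6.15 on the wtKI arrays against 4.93, 4.61 and 4.83 in WT. Probe set 10351678 was at 7.04, 8.24 and 7.24 against 4.02, 4.19 and 3.87. The probe sets disagreed on the 2 arrays that stood apart: on SNP 1 the former was at 7.48 and the latter at 3.82, and on KO 1 they were at 6.12 and 3.54. By the former alone, SNP and wtKI overlapped, with a mean difference of -1.01, whereas by the latter they were separate, at -3.62.

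Markers of stem and early progenitor cells had a higher mean in wtKI than in WT in 12 of 12 measured members, with a median difference of 0.27 beside -0.01 over all genes. Of these 4 had no overlap, or 33.3% of the list beside 12.6% of all genes, and none passed (limma; 2 under an unadjusted p of 0.05). Kit and Cd34, which GMPs also express, are in this list, and Slamf1 is not. The mean of the list was 6.99, 7.36 and 7.81 on the wtKI arrays and 6.83 to 7.08 on WT, with 7.15 to 7.26 on KO and 6.84 to 7.28 on SNP. The list was not raised in wtKI alone. In KO minus WT, 10 of 12 were higher, with a median of 0.23. There 3 were higher and 1 lower without overlap, or 33.3%, beside 11.8% of all genes. In SNP minus WT, 7 of 12 were higher, with a median of 0.05. On wtKI 1, where the list was within the WT range, Slamf1 was 6.77. No member of the list was under the 5th percentile on all 3 arrays of any group. Markers of mast cells, basophils and eosinophils were higher in wtKI than in WT by mean in 9 of 10 members, with a median of 0.47 and 3 without overlap, and list means of 7.16, 7.26 and 8.30 on wtKI 1 to wtKI 3 against 6.71 to 7.78 in WT. Megakaryocyte and erythroid markers were higher by mean in 12 of 14, with a median of 0.22 and 2 without overlap, and list means of 6.72 to 6.92 against 6.28 to 6.82. No member of these lists passed either (limma; 2 and 0 under an unadjusted p of 0.05). Macrophage and dendritic cell markers were higher by mean in 9 of 12, with a median of 0.24, and list means of 6.90 to 7.01 against 6.65 to 6.81. GMP markers were lower in 8 of 11, with a median of -0.1, and list means of 9.02 to 9.07 against 9.11 to 9.21. In these lists 25.0% and 45.5% had no overlap, and none passed (limma). T and NK, B cell and late neutrophil markers were higher in 4 of 10, 6 of 9 and 5 of 14. In sorted bulk samples, fewer cells of a type and less RNA per cell cannot be told apart, and the part of any of these cells in the level of Slamf1 was not tested.

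**Figure D1:**
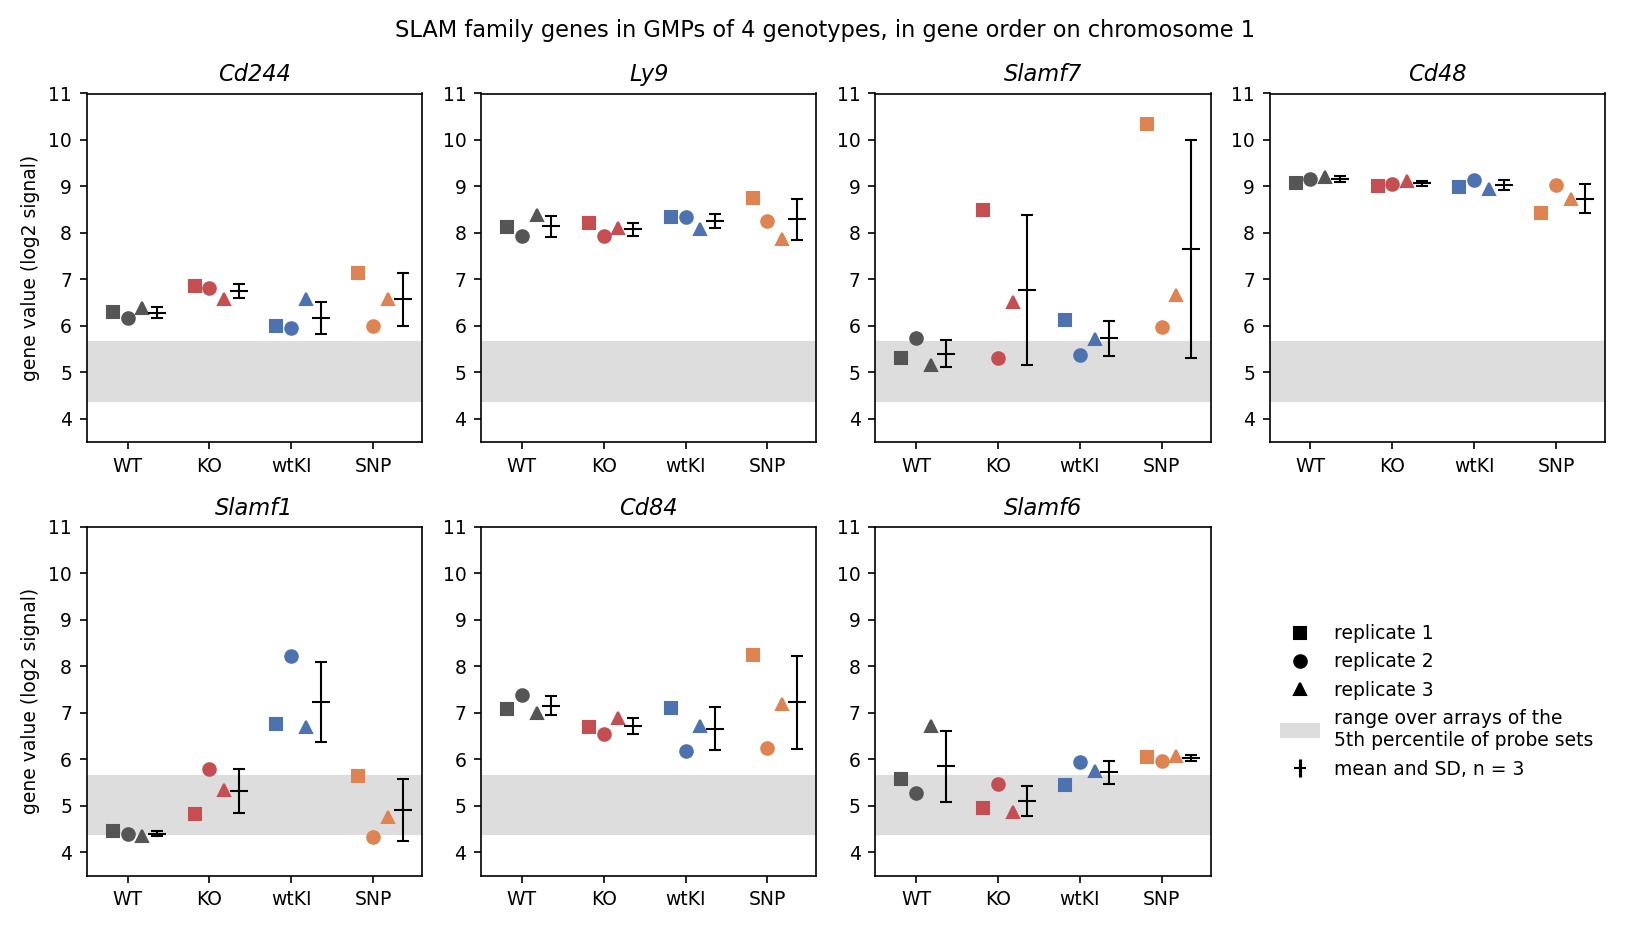
Gene values of the 7 SLAM family members (log2 signal, vertical axes) on each of the 12 arrays by group, in their order along chromosome 1, with replicate 1 as a square, 2 as a circle and 3 as a triangle, the mean and SD (n = 3) as a black bar, and the range of the arrays' 5th percentile of probe sets in grey. The wtKI arrays are above all others for Slamf1 alone, and SNP 1 and KO 1 are the highest for Slamf7 at 10.34 and 8.49.

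By gene value, the 6 neighbours in the cluster did not follow Slamf1 in wtKI. Along the chromosome the genes were ordered Cd244, Ly9, Slamf7, Cd48, Slamf1, Cd84 and Slamf6, with no other measured gene between them. Their differences between wtKI and WT ran from -0.50 (Cd84) to 0.33 (Slamf7) with a median of -0.12, beside -0.01 over all genes, and in each of the 6 the wtKI and WT arrays overlapped. Of the 7 members, 1 (Slamf1) had separate wtKI and WT arrays, where 12.6% of all genes did in either direction. No member passed an adjusted p of 0.05 (limma), with a background of 0% of all genes and 434 genes under an unadjusted p of 0.05. As Slamf1 was chosen on this comparison, nothing is read from these counts.

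By gene value, the receptor-ligand pair Cd48 and Cd244 differed little between wtKI and WT. Cd48, the lipid-anchored ligand, was at 8.99, 9.15 and 8.94 on the wtKI arrays and 9.08, 9.17 and 9.21 in WT. Its partner Cd244 (now named Cd244a), a receptor of natural killer and myeloid cells, was at 5.99, 5.96 and 6.57 in wtKI and 6.30, 6.17 and 6.39 in WT. Both pairs of groups overlapped, with differences of -0.13 ± 0.17 and -0.11 ± 0.27 (SE).

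Among the self-binding receptors, Ly9 (CD229) was at 8.34, 8.35 and 8.08 in wtKI and 8.13, 7.93 and 8.38 in WT, a difference of 0.11 ± 0.23. Cd84, the next gene to Slamf1 on its other side and a receptor of platelets, mast cells and lymphocytes, was at 7.10, 6.18 and 6.71 in wtKI against 7.09, 7.39 and 7.0. The value of wtKI 2 was the lowest of the 12 arrays for Cd84, on the array where Slamf1 was highest. Slamf6 (Ly108) was at 5.46, 5.95 and 5.75 in wtKI and 5.58, 5.27 and 6.72 in WT, with WT 3 above all others. Slamf7 (CRACC) was at 6.12, 5.37 and 5.71 against 5.31, 5.73 and 5.17. In all 4 the wtKI and WT arrays overlapped.

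Over the 12 arrays the Pearson correlation of Slamf1 with a neighbour lay between -0.265 (Cd84) and 0.247 (Ly9), and on the 10 arrays between -0.476 (Cd84) and 0.335 (Ly9). These points share arrays and normalization and are given as a description only.

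**Figure D2:**
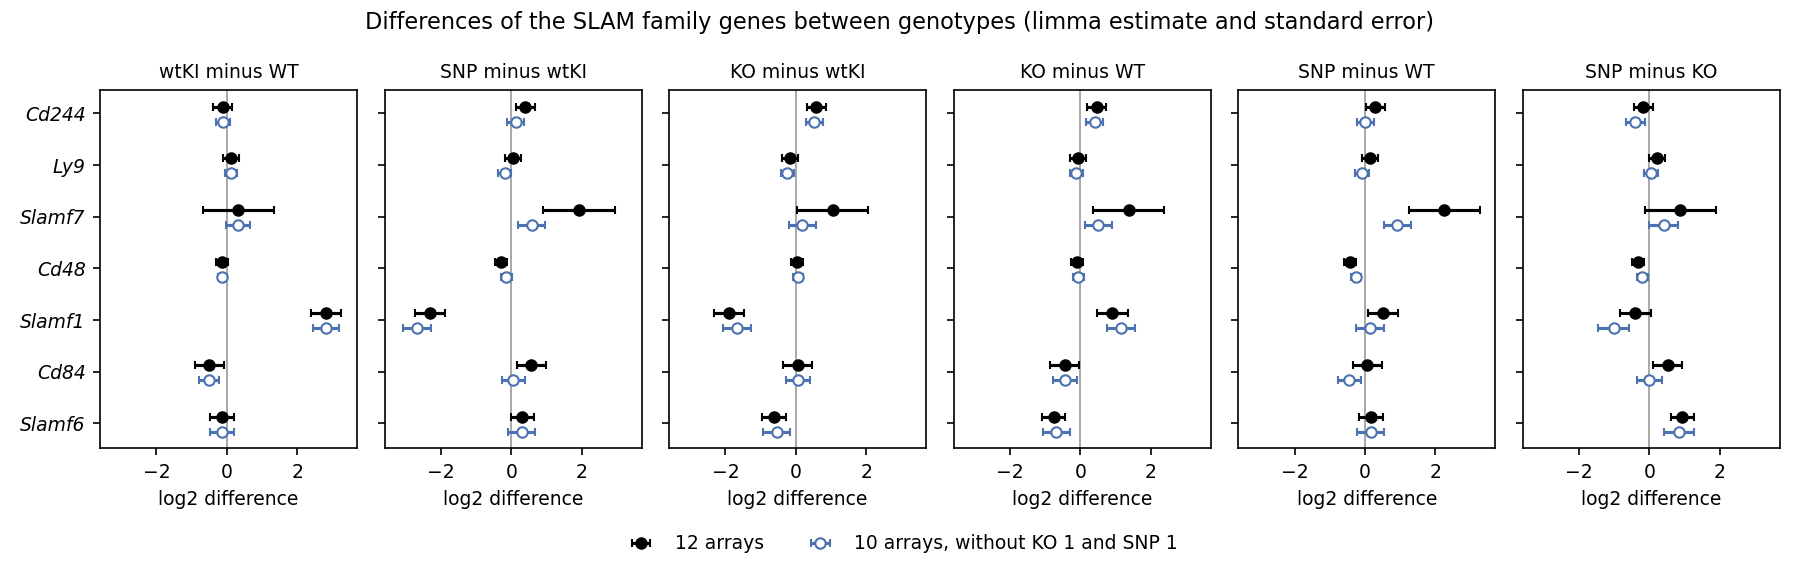
Differences between groups for the 7 members (log2, horizontal axes), 1 panel for each of the 6 comparisons, as the limma estimate with its standard error, from all 12 arrays (black) and from 10 arrays without KO 1 and SNP 1 (open blue). Slamf1 lies at 2.82 in wtKI minus WT, where the other members lie between -0.50 and 0.33.

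KO was compared with WT, which asks how the family differs when Gfi1 is lost. The KO arrays were separate from the WT arrays in 3 of the 7 members, where 11.8% of all genes were, and no member passed (limma; background 0% of genes, with 670 of all genes and 1 member under an unadjusted p of 0.05). Slamf1 was 0.91 ± 0.43 above WT in KO (SE; limma adjusted p = 1), and all 3 KO arrays were higher. Without KO 1 and SNP 1 the difference was 1.15 ± 0.40 (limma adjusted p = 0.556). The KO arrays were above WT by probe set 10351670, from 5.05 against a WT maximum of 4.93. By 10351678 they overlapped WT, with KO 1 at 3.54 below the WT range of 3.87 to 4.19. The gene value was under the 5th percentile on all 3 WT arrays and 1 KO array.

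Cd244 was at 6.86, 6.81 and 6.58 on the KO arrays, all above the WT range of 6.17 to 6.39. The difference was 0.47 ± 0.27 (limma adjusted p = 1), and 10 of its 10 probe sets had a higher mean in KO, 1 of them without overlap, as had 5.41% of all probe sets. Cd84 was at 6.69, 6.55 and 6.90, all below the WT range of 7.0 to 7.39, with a difference of -0.45 ± 0.41 (limma adjusted p = 1). Of its 7 probe sets, 5 were lower in KO, while 10351680 had a higher mean, with KO 1 at 10.55 and KO 2 and KO 3 at 8.64 and 8.20. Without KO 1 and SNP 1 the differences of the gene values were 0.41 ± 0.24 and -0.44 ± 0.33.

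Slamf6 was at 4.95, 5.47 and 4.88 on the KO arrays and overlapped WT at 5.27. It was the member under an unadjusted p of 0.05 (0.0402), with a difference of -0.76 ± 0.33 (limma adjusted p = 1), and all 3 of its probe sets were lower. The difference was -0.33 without WT 3, the highest WT array at 6.72. Slamf7 was at 8.49, 5.31 and 6.52 in KO, a spread wider than its difference from WT of 1.37 ± 1.01 (limma adjusted p = 1), which was 0.51 ± 0.38 without KO 1 and SNP 1. Ly9 and Cd48 differed from WT by -0.06 ± 0.23 and -0.09 ± 0.17. Markers of mast cells, basophils and eosinophils were higher in KO in 10 of 10 measured members, with list means of 8.10 to 8.33 in KO and 6.71 to 7.78 in WT, and their part in these values was not tested.

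SNP was compared with WT. The arrays were separate in 2 of the 7 members, near the 25.8% of all genes that were, and no member passed (limma; background 0%, with 2260 genes and 2 members under an unadjusted p of 0.05). Slamf7, a receptor of natural killer cells, macrophages and plasma cells, was at 10.34, 5.97 and 6.66 on the SNP arrays, all above the WT maximum of 5.73. Its difference was 2.25 ± 1.01 (limma unadjusted p = 0.0464, adjusted p = 0.307), and 0.92 ± 0.38 without SNP 1 and KO 1 (limma adjusted p = 0.289). All 3 of its probe sets were separate and higher in SNP, by 1.45 to 2.63, where 8.10% of all probe sets were. For 2 of them the margin was small, and SNP 1 was far above the other SNP arrays. Probe set 10360174 was at 5.97 and 6.28 on SNP 2 and SNP 3 against a WT maximum of 5.84. Probe set 10360179 was at 3.92 and 4.98 against 3.91, and was under the 5th percentile on 8 arrays. Probe set 10360176 was at 8.37, 7.66 and 8.43 on SNP 1 to SNP 3 against 7.17. On 2 of the 3 WT arrays Slamf7 was under the 5th percentile.

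Cd48 was at 8.42, 9.04 and 8.74 (log2) on the SNP arrays, all below the WT minimum of 9.08. The difference was -0.42 ± 0.17 (limma unadjusted p = 0.0344, adjusted p = 0.294), and -0.26 ± 0.15 on the 10 arrays (limma adjusted p = 0.407). All 5 of its probe sets had a lower mean in SNP, 2 of them without overlap, as had 12.1% of all probe sets. Slamf1 itself was 0.51 ± 0.43 above WT (limma adjusted p = 0.526), with SNP 2 at 4.34, just under the WT arrays, and 0.15 ± 0.40 on the 10 arrays. Cd84 was at 8.25 on SNP 1 and 6.24 and 7.20 on the others, and its difference from WT turned from 0.07 ± 0.41 to -0.44 ± 0.33 without SNP 1 and KO 1. Cd244 (7.13, 6.00 and 6.59) and Ly9 (8.76, 8.25 and 7.88) were likewise highest on SNP 1, with differences of 0.29 ± 0.27 and 0.15 ± 0.23, and 0.01 ± 0.24 and -0.08 ± 0.19 on the 10 arrays. B cell markers were higher in SNP than in WT in 9 of 9 members and late neutrophil markers in 14 of 14, beside 6998 of all 14201 genes. The means of these 2 lists were 8.70, 5.80 and 5.95 and 10.9, 6.89 and 7.34 on SNP 1 to SNP 3, against 5.20 to 5.38 and 6.47 to 7.52 in WT. T and NK cell markers were higher in 9 of 10, and macrophage and dendritic cell markers in 9 of 12. Megakaryocyte and erythroid markers were higher in 12 of 14, and mast cell, basophil and eosinophil markers in 7 of 10. Stem and early progenitor markers were higher in 7 of 12 and GMP markers in 1 of 11. The part of any of these cells in the differences was not tested.

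Between SNP and KO, 1 of the 7 members was separate, near the 14% of all genes, and none passed (limma; background 0.0141%, with 1788 genes and 1 member under an unadjusted p of 0.05). With the replicate number as a block, 0 of all genes passed where 2 did without it. Slamf6, a self-binding receptor of lymphocytes, was at 6.05, 5.96 and 6.07 in SNP, a narrow range above all KO arrays. The difference was 0.93 ± 0.33 (limma unadjusted p = 0.0159, adjusted p = 0.334), and 0.84 ± 0.42 on the 10 arrays. All 3 of its probe sets were separate and higher in SNP, by 1.06 to 1.80, where 5.68% of all probe sets were. Their plain mean gave 1.53 ± 0.38 (limma adjusted p = 0.235). Only probe set 10351700 had a narrow range in SNP, at 7.16, 7.07 and 6.93 against a KO maximum of 6.27. Probe set 10351698 was at 9.04, 5.24 and 5.82 against 5.22, and 10351694 at 5.61, 7.96 and 6.46 against 5.47. These were under the 5th percentile on 6 and 5 arrays, so their separation was by small margins near background. Slamf1 differed by -0.40 ± 0.43 (limma adjusted p = 0.695), and by -1.01 ± 0.44 without SNP 1 and KO 1 (limma adjusted p = 0.315). Its probe set 10351670 alone gave a difference of the opposite sign, 0.47.

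The knock-in groups were also set against each other, and KO against wtKI. In SNP minus wtKI 2 of the 7 members were separate (background 14.6%) and none passed (background 0%, with 1256 genes under an unadjusted p of 0.05 by limma). They were Slamf1, lower in SNP, and Slamf6, whose SNP arrays at 5.96 to 6.07 were just above the wtKI maximum of 5.95, a difference of 0.31 ± 0.33. In KO minus wtKI 2 were separate (background 10.9%) and none passed (background 0%, with 641 genes by the same unadjusted count). They were Slamf1, lower in KO, and Cd244, at 6.58 to 6.86 in KO just above the wtKI maximum of 6.57, a difference of 0.58 ± 0.27. Slamf7 was 1.92 ± 1.01 above wtKI in SNP, and 0.58 ± 0.38 without SNP 1 and KO 1. As the wtKI level of Slamf1 chose it, nothing is read from these counts.

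Single probe sets did not always follow the gene value of their member. Of the 43, 7 were separate between wtKI and WT, where 11.9% of all probe sets were. They were both probe sets of Slamf1 and 1 of Ly9, 1 of Cd48, 1 of Cd84 and 2 of Cd244, of which 10351657 was higher and the other lower. Probe set 10351657 of Cd244 was at 9.50, 9.68 and 10.36 in wtKI and 8.72, 8.53 and 8.85 in WT. It was higher than WT in KO too, at 9.55, 9.77 and 9.61, and on SNP 1 and SNP 3, at 10.09 and 10.14, but not on SNP 2, at 8.75. The gene value of Cd244 in wtKI does not show this, because 7 of the 10 probe sets were lower in wtKI than in WT.

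In Ly9, a run of 3 consecutive probe sets was lower on wtKI 2 than on any other array. Probe sets 10360160, 10360161 and 10360162 were at 7.03, 7.24 and 6.36 on it and at 8.79 to 9.73, 9.02 to 10.09 and 6.79 to 8.30 elsewhere. Of its other 10 probe sets, 10360166 was also lowest on wtKI 2, at 6.78 against 7.26 to 9.62 elsewhere, and the rest were not. The gene value of Ly9 on wtKI 2 was 8.35. Probe set 10351686 of Cd84 was likewise at 4.92 on wtKI 2 and at 6.70 to 7.75 on the other arrays. These single values were chosen after they were seen. Probe set 10351688 of Cd84 and 10360171 of Ly9 were at 2.87 and 2.94 on KO 1, the lowest of any array for each.

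**Figure D3:**
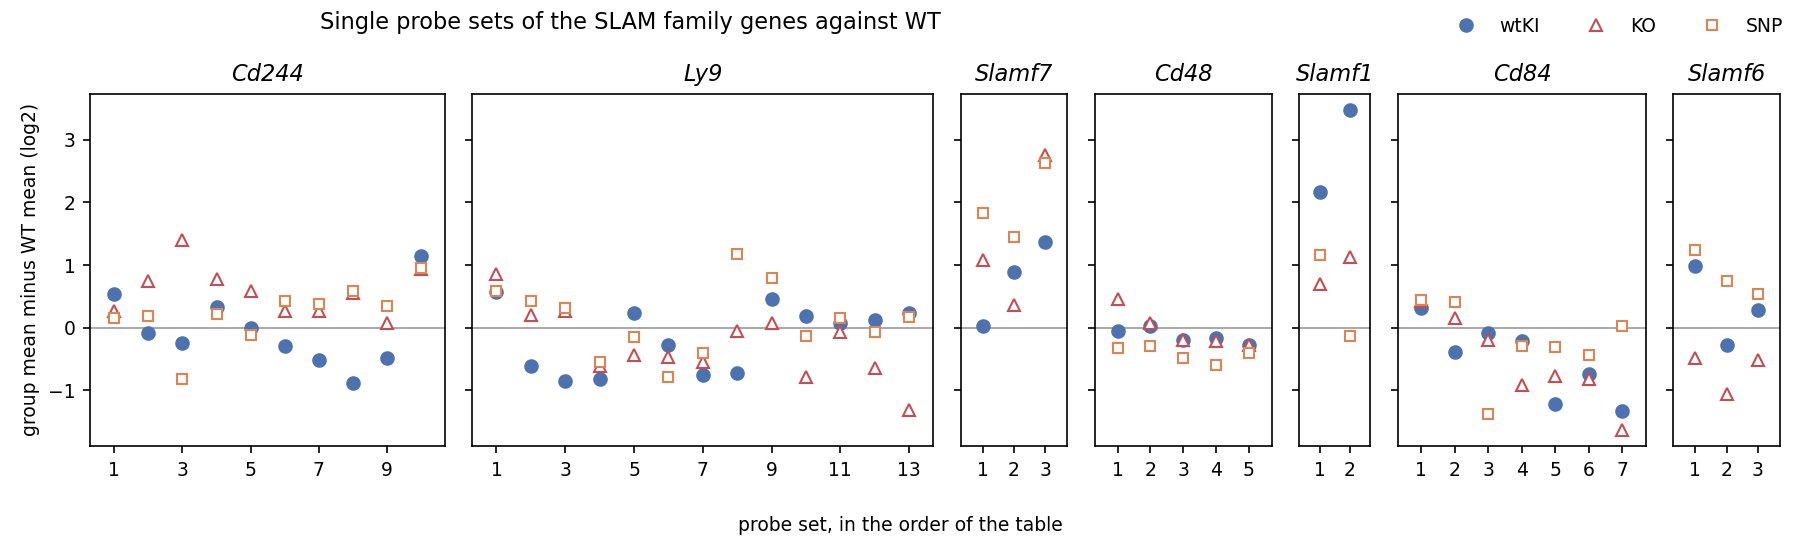
Mean of wtKI (blue circles), KO (open red triangles) and SNP (open orange squares) minus the mean of WT (log2, vertical axis, n = 3 arrays each) for each of the 43 probe sets, by gene and in the order of the table. For Slamf1 the wtKI circles lie at 2.17 and 3.48, the highest wtKI values of any member, while the KO triangles of Cd244 all lie above 0 and the SNP squares of Cd48 all lie below it.

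Outside the cluster, the 10 measured genes on each side were not separate in wtKI by more than 1 on the log2 scale. Of these 20 flanking genes 11 were higher and 9 lower in wtKI than in WT, with a median of 0.02 and a range of -0.46 to 0.66. Of these, 2 were higher and 1 lower without overlap, where 12.6% of all genes had none in either direction. They were Atp1a4 at 0.66 ± 0.26, Vangl2 at 0.56 ± 0.26, a planar cell polarity protein, and Usf1 at -0.46 ± 0.26, a transcription factor. Vangl2 was without overlap in KO minus WT too, at 0.53 ± 0.26. A single flanking gene passed 1 on the log2 scale without overlap in any comparison. It was Casq1, a calcium-binding protein of muscle, 1.17 above WT in SNP, with SNP 1 at 9.15, SNP 2 and SNP 3 at 6.59 and 6.77, and WT at 6.22 to 6.52.

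Slamf1 was also set in a wider stretch, which was chosen after the values were seen. Of the 30 measured genes on each side, 3 had all wtKI arrays above or all below the other 9 arrays (5.0%), where 71 of all genes (0.5%) and 9 of 837 on chromosome 1 (1.08%) did. Over 60 genes on each side it was the same count of 3, or 2.5% of 120. Ifi202b, an interferon-induced DNA sensor, 29 genes after Slamf1, was at 8.81, 9.35 and 8.71 in wtKI. It was at 7.73 on WT 1 and between 1.84 and 2.62 on the other 8 arrays. Aim2, the DNA sensor of the inflammasome, 24 genes after, was at 9.27, 9.26 and 9.36 in wtKI and 8.57 to 9.08 on the others. Fcgr3, a low-affinity Fc receptor of the pair used to sort GMPs, 25 genes before, was lower in wtKI, at 8.07, 6.95 and 7.95, than on the others, at 8.14 to 9.06. None of the 6 neighbouring members was apart in this way. What set wtKI apart at these genes was not tested. Any other difference shared by the wtKI samples cannot be told apart from the knock-in here.

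**Figure D4:**
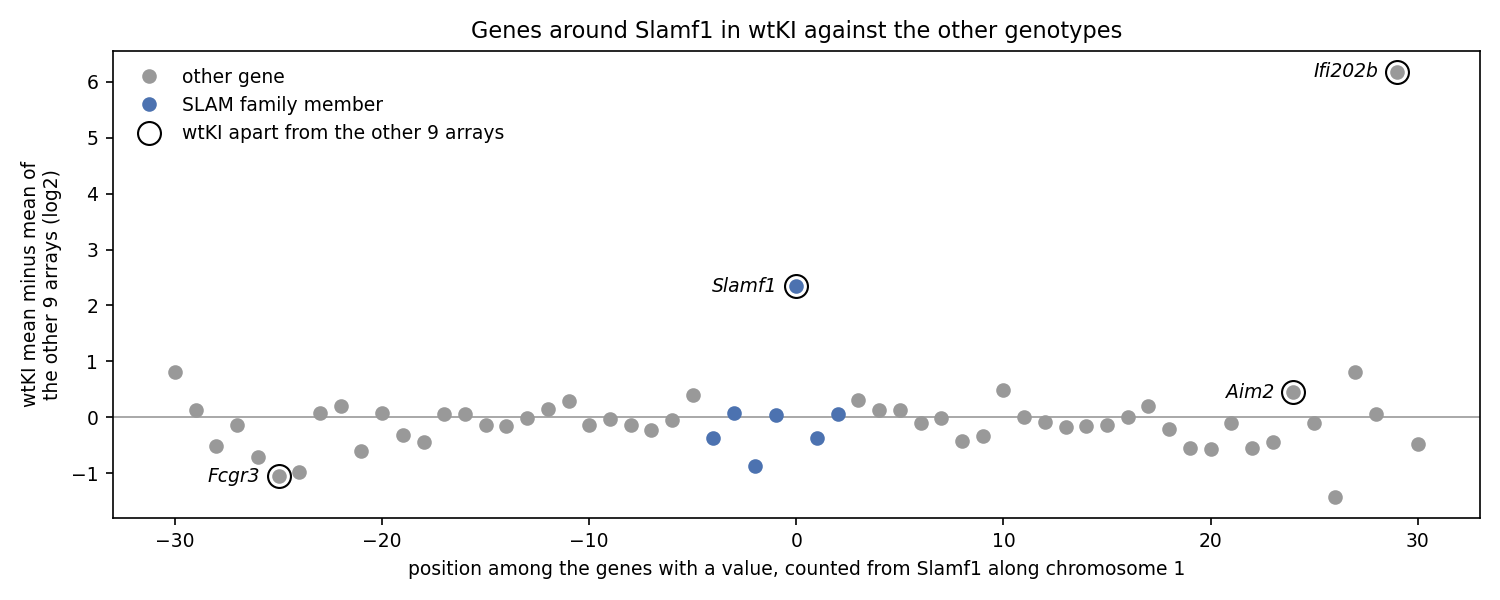
Mean of the 3 wtKI arrays minus the mean of the other 9 (log2, vertical axis) for the genes with a value around Slamf1, by their position in the gene order of chromosome 1 (horizontal axis, in genes from Slamf1), with SLAM family members in blue and rings around genes whose wtKI arrays do not overlap the other 9. Slamf1 is ringed at 2.35 while the members beside it are not, and the other rings are Fcgr3 at -1.06, Aim2 at 0.45 and Ifi202b at 6.18.

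Other genes of the same superfamily lay apart from the cluster and were not high in wtKI. Slamf8, a short-tailed member of macrophages that was measured by 1 probe set, was at 6.08, 5.28 and 6.39 in wtKI and 6.95, 5.87 and 5.85 in WT. Slamf9, also short-tailed and measured by 1 probe set, was at 7.37, 7.54 and 7.44 in wtKI and 7.62, 7.48 and 7.30 in WT. It was at 7.98, 7.79 and 7.91 in SNP, above every array of the other groups, with a difference from WT of 0.43 ± 0.16 (limma adjusted p = 0.279). SNP was separate from WT in 25.8% of all genes. Cd2, an adhesion receptor of T cells that binds Cd48 in mice, was at 8.05 on SNP 1 and between 4.69 and 5.29 on the other 11 arrays.

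Of 20 genes of SLAM receptor signalling, 17 were measured, and none passed in any of the 6 comparisons (limma), with 0 to 2 of them under an unadjusted p of 0.05. Sh2d1a, Sh2d1b2 and Lyn were not measured. In wtKI minus WT, 8 were higher and 9 lower with a median of -0.06, 4 of them without overlap (23.5%, beside 12.6% of all genes). In KO minus WT the split was 8 and 9 with 5 without overlap (29.4%, beside 11.8%), and in SNP minus WT it was 6 and 11 with 2 (11.8%, beside 25.8%).

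Sh2d1b1, the EAT-2 adaptor, had the widest range of the 17, at 6.55, 2.02 and 3.58 in wtKI, 7.14, 6.26 and 6.14 in WT, 6.83, 4.86 and 5.39 in KO and 7.41, 4.80 and 7.14 in SNP. Its wtKI arrays overlapped WT, as wtKI 1 was at 6.55. Fyn, the kinase that SAP brings to the receptors, was at 6.87, 7.16 and 7.30 in wtKI, above all KO and SNP arrays (6.46 to 6.84) but not above WT 2 at 7.04. Prkcq, a protein kinase C that acts after SAP and Fyn in T cells, was 1.13 ± 0.58 above WT in wtKI without overlap (limma adjusted p = 1). In KO, Vav1, a guanine nucleotide exchange factor, was at 7.56, 8.22 and 8.44, below the WT range of 8.69 to 8.75 (-0.65 ± 0.27, limma adjusted p = 1). Dok1, an inhibitory adaptor, was 1.02 ± 0.46 above WT in SNP without overlap (limma adjusted p = 0.315), with SNP 1 at 7.70 and the other SNP arrays at 6.16 and 5.74.

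The 10 genes whose values followed Slamf1 most closely over the 12 arrays had Pearson correlations of 0.782 to 0.836. They were Fam171a2 (r = 0.836, Spearman rho = 0.895), Trp53i11 (0.833 and 0.685), Zfp68 (0.818 and 0.615), Ufsp1 (0.807 and 0.664), Lat (0.804 and 0.678), Parp16, Entpd1, Rnpepl1, Tcte1 and Inppl1. Of these, 1 (Rnpepl1) is on chromosome 1, and none is a SLAM family gene. Their wtKI minus WT differences, 0.35 to 1.01, were smaller than that of Slamf1. Entpd1, the ectonucleotidase CD39, was at 6.34, 6.26 and 6.49 in wtKI and 5.30 to 5.99 on the other 9 arrays. Lat, an adaptor of T cell and mast cell receptors and a member of the signalling list, was at 6.23, 7.49 and 7.01 in wtKI and 5.66 to 6.83 on the others. The likeness was chosen on the same arrays, so it is given as a description.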

How the data were processed

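GMP RNA was isolated on small columns, amplified and biotin-labelled with NuGEN kits for small inputs and hybridised, per the labels' protocols. The authors deposited log2 signals that came from RMA, per the submitters' processing notes. The version and settings of RMA, and the genome build of the array, are not given in the sources. Every probe set in the table reaches at least 6.14 on some array, so the table is a selection of the array.

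The platform annotation gave 98975 of 105661 probe sets 1 gene symbol, 1703 several and 4983 none, and those with 1 symbol were summarised by median polish to 14201 genes (median of 5 probe sets each). A RefSeq gene table (GRCm38.p6), in which 14168 genes were found, gave current symbols and gene order only. Groups and replicate numbers came from the sample labels. The 6 comparisons were fitted with limma 3.58.1 in R 4.3.3 (lmFit, eBayes) using the 12 arrays together. P-values were adjusted over all genes by Benjamini and Hochberg, with a threshold of 0.05; errors are SE from this fit unless called SD. The fit was tested on simulated data. The comparisons share groups and are not independent of each other.

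The members and gene lists were chosen with earlier results of these data known. All 7 members and their probe sets were named, with the 10 nearest genes on each side that passed 1 on the log2 scale without overlap and the 10 genes most like Slamf1. Atp1a4, Usf1, Vangl2, Ifi202b, Aim2, Fcgr3 and the signalling genes described were chosen after their values were seen. Marker lists covered GMPs, stem and early progenitor cells, megakaryocytes and erythroid cells, mast cells, basophils and eosinophils, T and NK cells, B cells, macrophages and dendritic cells, and late neutrophils. The number of arrays limits the precision. Alternatives were the probe set summary, normalization, filter on dim genes, samples in the fit, prior, replicate block, Y-linked covariate and arrays left out. Deviations of same-numbered arrays from their group means correlated at -0.186 to 0.353 over 18 pairs of groups and numbers, with 4 over 0.1. All 3 pairs of KO and SNP were over 0.1 (0.353, 0.206 and 0.144), so the blocked count is given beside that comparison, although KO 2 with SNP 3 and KO 3 with SNP 2 reached 0.218 and 0.312. In the other comparisons the numbers were not taken to pair the samples.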

Additional observations from a re-analysis of the deposited data

How the results depend on the processing

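The filter on dim genes removed Slamf1, Cd244, Slamf7 and Slamf6. For Slamf1, every other alternative used wtKI arrays that chose it. In those others its wtKI minus WT difference stayed above 0. It was between 2.33 and 3.09 with 1 array left out, and 2.17 with the probe set of the highest mean in place of the summary. With that probe set the SNP minus wtKI difference was -1.01 and SNP minus KO turned to 0.47. Ly9 and Cd84 in KO minus WT turned to 0.26 and 0.42, and Cd244 in SNP minus KO to 0.021. In wtKI minus WT the same setting turned Cd244 to 1.14 ± 0.35, Ly9 to -0.85 ± 0.47, Cd84 to 0.32 ± 0.61 and Slamf6 to 0.28 ± 0.20. Slamf7 and Cd48 kept their signs, at 0.89 ± 0.40 and -0.19 ± 0.16. By plain mean, Ly9 and Slamf6 in wtKI minus WT turned to -0.17 and 0.33, and Slamf6 was 0.30 without WT 3. With 1 array left out, Slamf1 lay between -2.68 and -1.81 in SNP minus wtKI, -2.18 and -1.42 in KO minus wtKI, 0.68 and 1.15 in KO minus WT, 0.15 and 0.80 in SNP minus WT, and -0.76 and -0.11 in SNP minus KO. Without KO 1 and SNP 1, SNP minus WT was -0.080 for Ly9 and -0.44 for Cd84, and SNP minus KO was -0.0022 for Cd84; for Cd84 in SNP minus WT it was also -0.22 by plain mean and -0.061 with the Y-linked covariate. With 1 array left out, Ly9 ranged from -0.17 to 0.056 in KO minus WT, -0.080 to 0.36 in SNP minus WT and -0.020 to 0.42 in SNP minus KO. In the same way Cd84 ranged from -0.44 to 0.56 and Slamf6 from -0.12 to 0.60 in SNP minus WT, and Cd244 from -0.46 to 0.11 and Slamf7 from -0.46 to 1.74 in SNP minus KO. The cause of these turns was not tested.

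The number of genes passing was small throughout. It was 13 in SNP minus KO and 3 in KO minus WT by plain mean, 0 in SNP minus KO by highest mean, 1 in SNP minus WT and 1 in SNP minus KO without the dimmest 30% of genes, and 5 in SNP minus KO with a trend and robust prior. With only the 2 groups compared it was 1 in SNP minus wtKI, KO minus wtKI and KO minus WT and 0 in SNP minus KO. Without KO 1 and SNP 1 it was 4 in KO minus WT and 0 in SNP minus KO, and with the Y-linked covariate 0 in SNP minus KO. With the replicate number as a block, 0 genes passed in SNP minus KO, where 2 did without it, and the count in the other 5 comparisons was 0 with and without the block. With 1 array left out, the counts lay between 0 and 1 (wtKI minus WT), 0 and 2 (SNP minus wtKI, KO minus wtKI and SNP minus WT), 0 and 5 (KO minus WT) and 0 and 3 (SNP minus KO). Slamf1 in WT and SNP, Slamf7 in WT and Slamf6 in KO are near background, where sizes of differences are not exact.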

Other observations

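The genes that passed in any comparison of the main fit were both in SNP minus KO, outside the SLAM family. Csf2rb, the shared beta chain of the GM-CSF, IL-3 and IL-5 receptors, was at -1.41 ± 0.17 in SNP relative to KO, and Zdhhc2, a palmitoyl transferase, at -2.88 ± 0.36 (SE; limma adjusted p = 0.0478 for each, n = 3 arrays per group). With any one of WT 1, WT 2, WT 3, KO 1, KO 2 or the wtKI arrays left out, 0 genes passed in this comparison, and 0 passed with the replicate number as a block.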
